A study of Caenorhabditis elegans with 2 samples.

Results

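The cuticle collagen genes of Caenorhabditis elegans were examined for binding of ZIP-8, a transcription factor of the basic leucine zipper (bZIP) class, in embryos. They comprised 16 genes named for their body-form mutants (dpy-2, dpy-3, dpy-5, dpy-7, dpy-8, dpy-9, dpy-10, dpy-13, dpy-17, lon-3, sqt-1, sqt-2, sqt-3, rol-6, bli-1 and bli-2) and all 156 protein-coding genes named col with a number, 172 of the 19973 protein-coding genes on the nuclear chromosomes. Membership rested on gene names alone, so a cuticle collagen gene with another name would not be counted. RefSeq gave a product for all 172 genes, and for 165 of them that product was named as a cuticle collagen or its domain. The 7 others were col-17, col-46, col-47, col-52, col-55, col-87 and col-135. One gene included by name, col-99, encodes a transmembrane collagen and not a secreted cuticle component.

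Cuticle collagens are short proteins with Gly-X-Y repeats that wind into triple helices. The epidermis secretes them, proteases trim them, and cross-links join them into the layers of the cuticle, whose annuli, furrows and struts set the shape of the body. The first cuticle is made late in embryogenesis and a new one before each moult, with different collagen genes transcribed in successive waves. Factors of the bZIP class bind DNA as dimers at short, often palindromic sites.

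Chromatin immunoprecipitation with sequencing (ChIP-seq) was performed on whole organisms of strain OP327, with genotype unc-119(ed3) III and the transgene wgIs327, which carries zip-8 fused to eGFP. The embryos were of mixed sex and mixed stages. The 2 biological replicates formed 1 group, and both carried the same transgene in the same unc-119 background. The antibody is labelled by its target, zip-8, and the promoter that drives the transgene is not given in the labels. Each replicate has a biosample of its own, and since no label says that these were grown apart, differences between the replicates may be technical. No other condition was compared, and peaks from whole embryos do not show in which cells or at which stage the DNA was occupied.

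The list called optimal held 2610 peaks on the 6 nuclear chromosomes of build ce11, and these were the peaks of highest signal in a longer list made from the pooled reads of both replicates (29972 nuclear peaks). Each replicate also had its own list, with 22773 nuclear peaks in replicate 1 and 12190 in replicate 2. Signal is the enrichment value the authors' caller gave a peak, on a scale that no header or label states. Values were therefore compared within a list only, and ranks count from the highest signal of a list. Over the optimal list the median signal was 38.36 (interquartile range 27.52 to 58.79, lowest 21.44, highest 1224). A gene was linked to a peak when the summit lay between 2000 bp upstream of its start and 1000 bp past its end. The number of reads behind the lists is unknown.

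The DNA at 11 of the 15 linked summits is printed here because it holds the sequence features described with the results. Of the others, 3 held no full site, and the run at col-52, which held a CRE palindrome, is not printed. Capitals mark the full bZIP site nearest the summit, a match on either strand, wholly within 50 bp of the summit, to 1 of 6 patterns. These are TGACGTCA (CRE palindrome), TGACGTAA (CRE variant, TTACGTCA on the other strand), TTGCGCAA (C/EBP palindrome), TTACGTAA (PAR palindrome), TGATGCAA (C/EBP-ATF composite) and TGACGCAA (hybrid). Each run reads 5′ to 3′ on the + strand of ce11, taken from the RefSeq genome of the same assembly. Runs are 61 bases centred on the summit, except that the col-130 run is centred on its site and those of col-111 and col-72, which touch annotated untranslated regions, are 30 bases around the site. The order is that of signal in the optimal list.
col-129, chrIV:12109913-12109973: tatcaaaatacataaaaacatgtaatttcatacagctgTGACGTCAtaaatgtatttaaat
col-130, chrIV:12428592-12428652: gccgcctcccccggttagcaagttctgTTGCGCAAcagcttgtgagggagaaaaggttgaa
col-83, chrII:11044009-11044069: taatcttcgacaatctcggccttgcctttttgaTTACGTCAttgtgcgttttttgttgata
col-99, chrIV:145759-145819: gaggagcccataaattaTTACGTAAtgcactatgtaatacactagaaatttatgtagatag
rol-6, chrII:8731453-8731513: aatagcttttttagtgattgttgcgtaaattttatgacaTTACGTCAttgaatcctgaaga
col-36, chrII:7169499-7169559: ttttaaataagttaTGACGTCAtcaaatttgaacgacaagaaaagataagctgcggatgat
col-183 and col-184, chrX:13469195-13469255: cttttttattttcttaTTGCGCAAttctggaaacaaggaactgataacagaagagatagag
col-97, chrIII:12994594-12994654: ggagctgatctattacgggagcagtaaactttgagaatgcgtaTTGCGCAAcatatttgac
col-169, chrX:6328846-6328906: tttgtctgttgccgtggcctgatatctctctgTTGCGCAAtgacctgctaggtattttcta
col-111, chrIV:4657773-4657802: aggaagaacagTTGCGCAAtgaaacgaaaa
col-72, chrII:3525124-3525153: cagttacactgTGACGTCAtcggaaaagga

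The 11 printed runs fall into 3 CRE palindromes (col-129, col-36, col-72), 2 CRE variants (col-83, rol-6), 5 C/EBP palindromes (col-130, the peak shared by col-183 and col-184, col-97, col-169, col-111) and 1 PAR palindrome (col-99). The CRE variant reads TTACGTCA on the printed strand at both col-83 and rol-6, followed at both by the bases ttg. A match describes the letters of the window and does not show that the factor contacts them.

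ZIP-8 peaks lay at a minority of the collagen genes. An optimal peak was linked to 17 of the 172 genes, which is 9.88% (exact 95% interval 5.86 to 15.35%, counting error only), beside 13.9% of all protein-coding genes. The 17 genes shared 15 peaks. Of the 16 body-form genes 1 was linked, rol-6 (6.25%, 0.158 to 30.23%), and of the 156 col genes 16 were linked (10.26%, 5.98 to 16.12%). The interval of the collagen genes includes the share over all genes. It treats genes as independent although some shared a peak, and the difference from the background was not tested.

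Collagen genes are short, which narrows the window in which a summit could be counted. Their median length was 1214 bp against 2027 bp over all protein-coding genes, and their median window 4214 bp against 5027 bp. After overlapping windows were merged, the collagen genes held 20.94 linked summits per Mb of window and all genes 26.37 per Mb. The density of the collagen genes was lower also per length of DNA, but it rests on 15 summits and was not tested.

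A narrower question is whether the summit lay in a promoter, here from 1000 bp upstream to 200 bp downstream of an annotated transcript start. Promoter summits were found at 8 of the 172 collagen genes, or 4.65% (2.03 to 8.96%), beside 4.35% of all genes. With a promoter of 500 bp upstream the count was 5 (2.91% beside 2.71% of all genes), and with the higher-signal 50% of peaks it was 4 (2.33% beside 2.19%). The 8 genes were col-36, col-72, col-97, col-111, col-129, col-130, col-169 and col-184. None of the 16 body-form genes had one, which with 16 genes allows a share of up to 20.59%. Peaks with a full bZIP site were linked to 13 collagen genes, or 7.56% (4.09 to 12.58%), beside 11.5% of all genes.

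**Figure D1:**
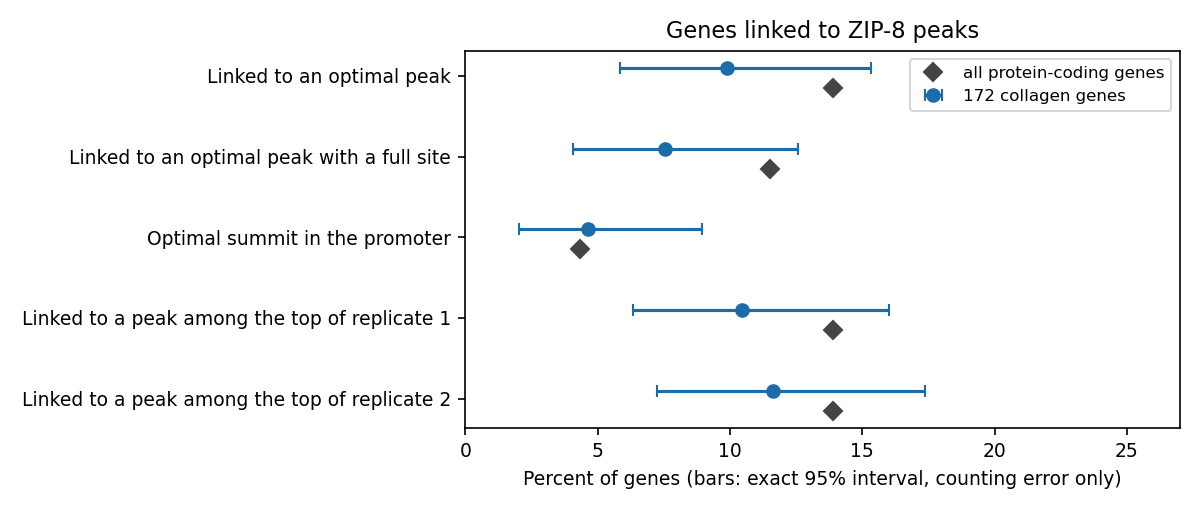
Percent of genes linked to ZIP-8 peaks under 5 definitions, with blue points for the 172 collagen genes, bars for exact 95% intervals and diamonds for all protein-coding genes. Each interval of the collagen genes includes the diamond of its row, and the point lies above the diamond for promoter summits alone (4.65% against 4.35%).

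The strongest peak at a collagen gene belonged to col-129 (chrIV:12108734-12110439, - strand). Its signal was 187 in the optimal list (rank 53), 146.3 in replicate 1 (rank 53) and 25.98 in replicate 2 (rank 290). The peak was thus among the higher ones in every list. Its summit at chrIV:12109943 lay in an intron, 496 bp downstream of the gene start and 332 bp from the start of another annotated transcript of col-129. The peak held 2 full sites, both CRE palindromes, of which the nearest is printed above, and the summit also fell in the window of dlc-2.

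Next in signal was col-130 (chrIV:12427505-12428516, - strand), whose summit at chrIV:12428667 lay 151 bp upstream of the start. The peak had a signal of 113.6 in the optimal list (rank 173), 97.2 in replicate 1 (rank 128) and 14.85 in replicate 2 (rank 776). Its C/EBP palindrome was centred 44.5 bp from the summit, the greatest distance among the linked peaks. The summit of replicate 1 coincided with the optimal one, and that of replicate 2 lay 57 bp from it. The window of ugt-65 also contains this summit.

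At col-83 (chrII:11044074-11045972, - strand) the summit lay at the other end of the gene, 35 bp past its annotated end. The signal was 81.91 in the optimal list (rank 322), 58.7 in replicate 1 (rank 312) and 22.41 in replicate 2 (rank 397). The peak stood at a similar rank in all 3 lists, with its CRE variant centred 6.5 bp from the summit. No other protein-coding gene was linked to it.

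In the transmembrane collagen gene col-99 (chrIV:137974-147919, - strand) the peak was in an intron, 2130 bp into the gene. It measured 78.43 in the optimal list (rank 360), 50.7 in replicate 1 (rank 406) and 17.56 in replicate 2 (rank 605). This was the one linked peak with a PAR palindrome, centred 9.5 bp from the summit. Without col-99, which is no cuticle component, 16 members remained linked.

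Among the 16 listed body-form genes, the single gene with an optimal peak was rol-6 (chrII:8733050-8734239, + strand). It encodes a collagen whose dominant mutant makes animals roll and is widely used as a marker of transformation. The summit at chrII:8731483 lay 1567 bp upstream of the start, in intergenic DNA outside the promoter window. Its signal was 69.85 in the optimal list (rank 457) and 69.01 in replicate 1 (rank 239), and no peak of replicate 2 overlapped it. The rol-6 peak therefore had support from 1 of the 2 replicate lists, in which it ranked above the other linked peaks that replicate 2 lacked. The CRE variant lay 12.5 bp from the summit, and a CRE palindrome 1991 bp upstream of the start lay at no summit.

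The remaining linked peaks had signals from 23.79 to 50.47 in the optimal list. At col-36 (chrII:7167511-7168812, - strand) the summit lay 717 bp upstream, with signals of 50.47 (optimal, rank 858), 24.17 (replicate 1, rank 1390) and 20.27 (replicate 2, rank 480). The col-36 peak had the higher rank in replicate 2, whose list is the shorter one. It held a CRE palindrome 12.5 bp from the summit and fell in the window of dyf-13 as well.

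Neighbouring collagen genes shared 2 of the peaks. The summit at chrX:13469225 lay between the divergent genes col-183 and col-184, 230 bp upstream of col-184 and 1461 bp upstream of col-183, with a C/EBP palindrome 10.5 bp away. It measured 38.85 in the optimal list (rank 1282), 33.44 in replicate 1 (rank 885) and 2.442 in replicate 2 (rank 9999), so it stood low in the list of replicate 2. The summit at chrV:9631387 lay between the convergent genes col-146 and col-147, 375 bp and 642 bp past their ends. That peak measured 48.44 in the optimal list (rank 909), 34.52 in replicate 1 (rank 840) and 12.36 in replicate 2 (rank 1009), held no full site, and lay 143 bp from the start of T06E4.5.

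At 3 further genes on the list an upstream summit carried a site. For col-97 (chrIII:12992405-12993707, - strand) the summit was 917 bp upstream with signals of 37.14 (optimal, rank 1362), 29.88 (replicate 1, rank 1067) and 7.915 (replicate 2, rank 2043). For col-169 (chrX:6329160-6330062, + strand) it was 284 bp upstream with signals of 29.21 (optimal, rank 1838), 21.76 (replicate 1, rank 1585) and 9.809 (replicate 2, rank 1463). Both had a C/EBP palindrome within 20 bp of the summit and a peak in each replicate. At col-72 (chrII:3520703-3524197, - strand) the summit was 914 bp upstream with signals of 23.79 (optimal, rank 2314), 12.33 (replicate 1, rank 2883) and 7.037 (replicate 2, rank 2445), a CRE palindrome 27.5 bp away, and a window shared with ncs-6.

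The weakest support was at col-111 and col-186, whose peaks no peak of replicate 2 overlapped. At col-111 (chrIV:4655791-4657974, - strand) the summit lay in an untranslated exon 174 bp downstream of the start, with a signal of 25.48 in the optimal list (rank 2149) and 13.83 in replicate 1 (rank 2615). At col-186 (chrX:15951494-15954789, + strand) it lay in an untranslated exon near the end of the gene, 3227 bp from its start, with 23.94 in the optimal list (rank 2301) and 23.57 in replicate 1 (rank 1432). The col-111 peak held a C/EBP palindrome and the col-186 peak no full site.

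At 2 genes the linked summit lay nearer another gene. The col-52 summit, 1354 bp upstream of the gene, lay in an intron of D1007.3 and 812 bp from that gene's start, with a CRE palindrome 4.5 bp away and signals of 49.77 (optimal, rank 876), 29.07 (replicate 1, rank 1106) and 9.681 (replicate 2, rank 1500). The col-89 summit, 1321 bp upstream of the gene, lay 772 bp from the start of F17C8.6 with no full site and signals of 42.24 (optimal, rank 1111), 28.84 (replicate 1, rank 1113) and 12.92 (replicate 2, rank 941). With the peak at T06E4.5, 3 of the 15 linked peaks had their nearest start at a gene that is no collagen gene, and 12 at a collagen gene. The link window alone does not show which gene a peak serves.

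**Figure D2:**
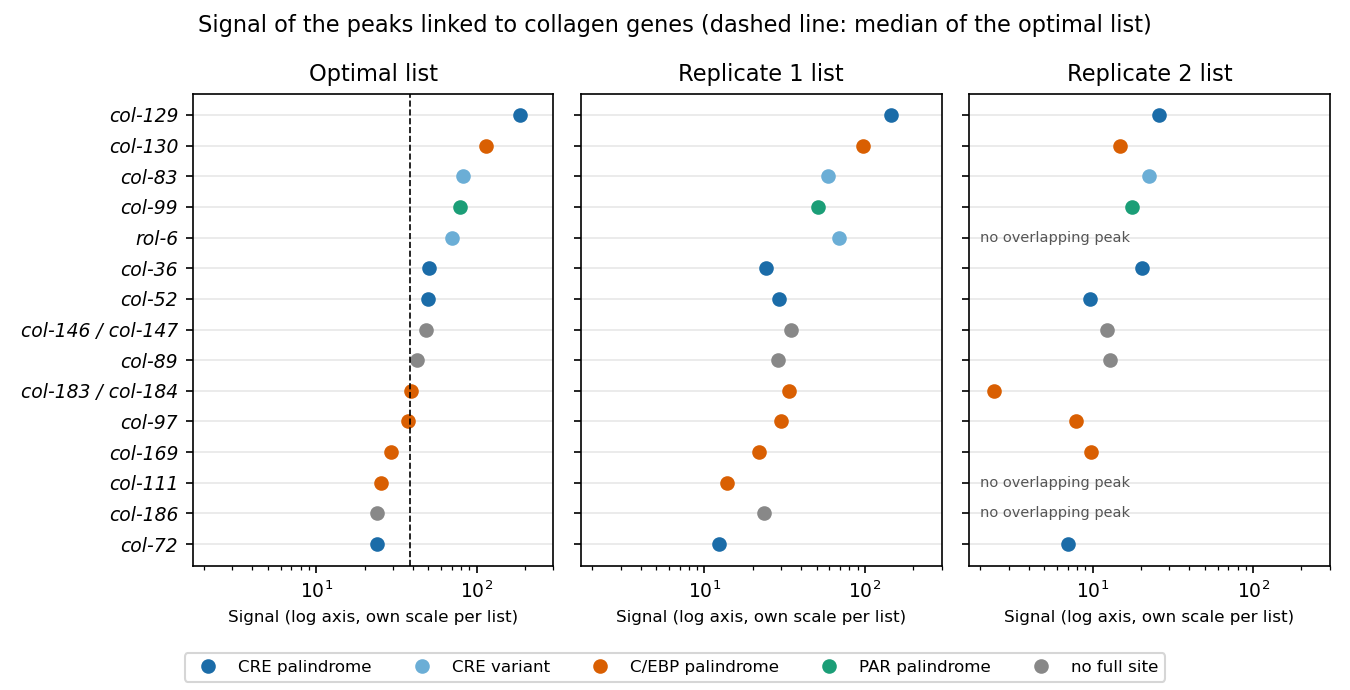
Signal of the 15 linked peaks in the optimal list and in each replicate list, on log axes whose scales cannot be compared between panels, coloured by the full site nearest the summit. The peak of col-129 lies highest in all 3 panels, and in replicate 2 the peaks of rol-6, col-111 and col-186 have no counterpart.

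**Figure D3:**
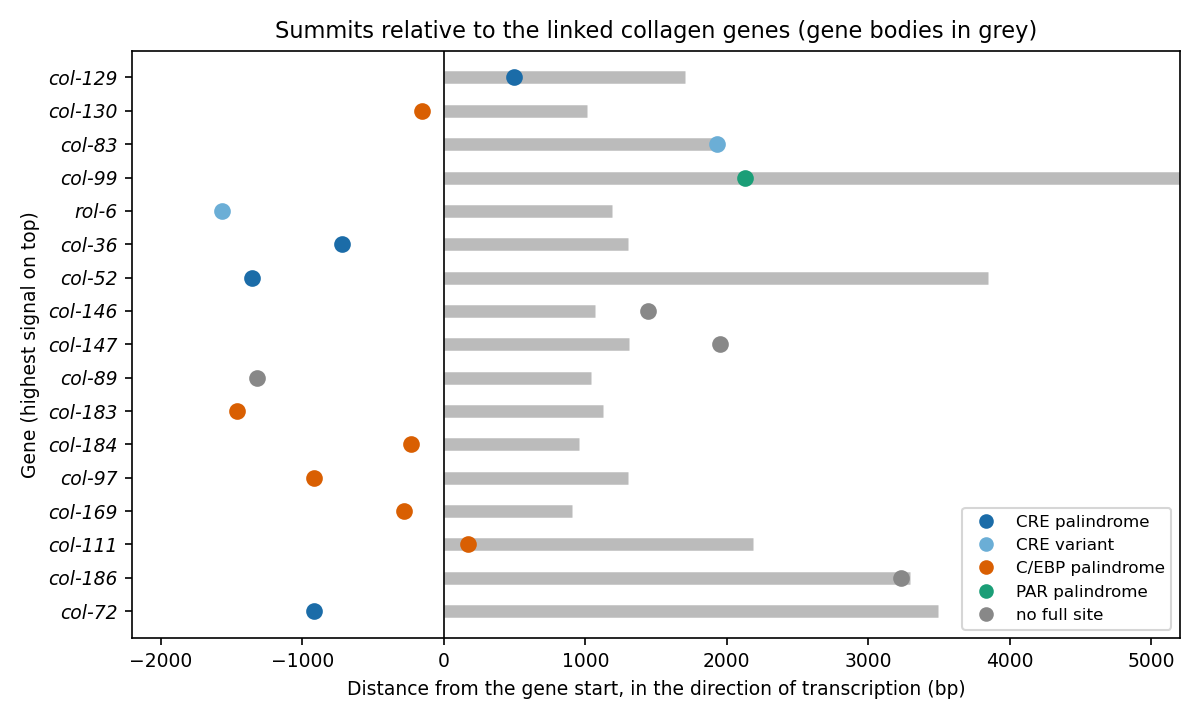
Position of each linked summit (points, coloured by site) relative to the start of its collagen gene, in bp along the direction of transcription, with gene bodies in grey (the body of col-99, 9946 bp, runs past the axis). Of the 17 pairs of gene and summit, 10 have the summit upstream, 4 within the gene and 3 past its end.

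As a set, the 15 linked peaks spanned the upper and lower parts of the optimal list. Their median signal was 48.44 (interquartile range 33.18 to 74.14), and 10 of the 15 lay above the optimal median of 38.36. Their median rank was 909 of 2610. Because the group is small, these values describe the 15 peaks and no test was made.

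By annotation, 10 of the 15 summits (66.67%) lay in the promoter of some protein-coding gene, 1 in an exon, 2 in an intron and 2 in intergenic DNA. Over all optimal summits 30.96% lay in a promoter, 15.36% in an exon, 28.12% in an intron and 25.56% in intergenic DNA. The link rule covers 2000 bp before each gene. Of all optimal summits, 2268 were linked to some protein-coding gene. The 808 in a promoter were all among these, since each promoter lies inside the link window of its gene. The part of the rule in the higher promoter share was not tested. Relative to the collagen gene, 10 of the 17 pairs were upstream, 2 in an intron, 2 in an untranslated exon, 3 downstream and 0 in a coding exon.

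Full bZIP sites lay at most summits linked to collagen genes. They were found at 12 of the 15 linked peaks (80%, 51.91 to 95.67%) and at 2054 of the 2610 optimal peaks (78.7%, 77.08 to 80.25%). In windows of the same width centred 250 bp to either side, 2 of 30 held a site (6.67%) at linked peaks, beside 2.49% over all optimal peaks. The centre of the nearest site lay a median of 12 bp from the summit, and within 20 bp for 10 of the 12 peaks, beside a median of 12.5 bp over all optimal peaks. The definition of a full site was made in earlier work on the same peaks, so its high share at summits is no independent evidence.

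The kinds of site were spread as follows. The C/EBP palindrome was at 5 of the 15 linked peaks, and at 16.36% of optimal peaks and 0.402% of side windows. The CRE palindrome was at 4 linked peaks, and at 39.5% of optimal peaks and 1.11% of side windows. Thus the C/EBP form outnumbered the CRE palindrome among the linked peaks, whereas the reverse held over the list, on counts too small to separate.

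Other forms were less frequent. The CRE variant was at 2 linked peaks (11.76% of optimal peaks, 0.268% of side windows) and the PAR palindrome at 1 (3.45% and 0.134%). The C/EBP-ATF composite and the hybrid form were at 0 linked peaks, against 1.84% and 9.46% of optimal peaks and 0.326% and 0.287% of side windows. The palindromes TGACGTCA, TTGCGCAA and TTACGTAA read the same on both strands, and a match was counted once.

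Most full sites near collagen genes lay under no optimal peak. In a count chosen after values had been seen, the link windows of the 172 genes held 106 full sites (148 per Mb), and those of all genes 14931 (173.6 per Mb). An optimal summit lay within 50 bp of 13 of the 106 (12.26%, 6.70 to 20.06%) and of 13.38% of all sites. By form, 5 of 10 C/EBP palindromes in collagen windows had an optimal summit (27.07% over all genes), as did 5 of 36 CRE palindromes (19.48%) and 0 of 30 composites (1.07%). A full site was present in the window of 75 collagen genes (43.6%, against 57.53% of all genes), and 16 of those 75 were linked to an optimal peak (21.33%, against 22.88%).

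Most linked peaks were also found in each replicate. A peak of each replicate overlapped 12 of the 15 (80%, 51.91 to 95.67%), beside 80.96% of optimal peaks. All 15 had an overlapping peak in replicate 1, and rol-6, col-111 and col-186 had none in replicate 2. Among the top 2610 of both replicate lists were 10 of the 15, or 66.67%, beside 50.19% of optimal peaks. Because the optimal list was made from the reads of both replicates, this is no independent support.

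**Figure D4:**
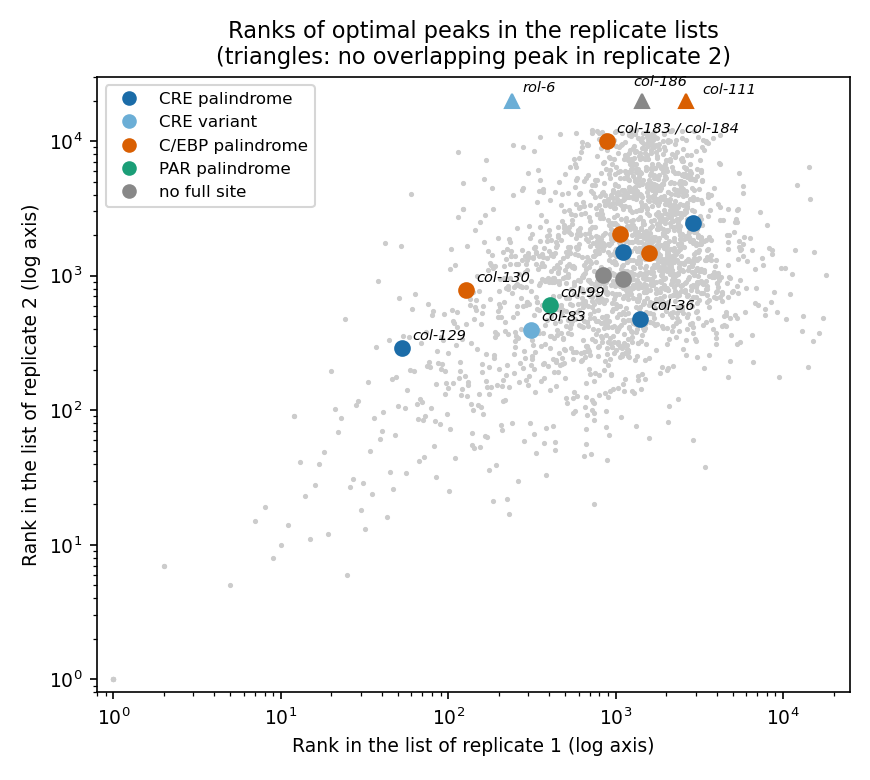
Rank of each optimal peak in the list of replicate 1 (x axis) and of replicate 2 (y axis), both on log axes with the highest signal at the lower left, in grey for optimal peaks with both and in colour by site for the 15 linked peaks. Triangles at the top are the 3 linked peaks with no overlapping peak in replicate 2, and the peak of col-183 and col-184 lies far apart in rank (885 and 9999).

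Taking the top 2610 peaks of each replicate list by itself gave similar numbers of genes but partly different ones. Replicate 1 linked 18 collagen genes (10.47%, 6.32 to 16.03%, beside 13.9% of all genes) and replicate 2 linked 20 (11.63%, 7.25 to 17.39%, beside 13.9%). They shared 12 genes, which is 66.67% of the genes of replicate 1 and 60% of those of replicate 2. The same overlap over all protein-coding genes was not worked out, so partial overlap is not shown to be particular to collagen genes. Of the 12, 11 also had an optimal peak, and the exception was col-181, with signals of 18.34 in replicate 1 (rank 1932) and 7.268 in replicate 2 (rank 2326). At col-181 the peaks were different ones, past the end of the gene in replicate 1 and upstream of its start in replicate 2.

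The genes linked through replicate 1 alone were col-62, col-125, col-183, col-184, col-186 and rol-6. Those linked through replicate 2 alone were col-9, col-72, col-159, col-160, col-176, col-187, dpy-9 and dpy-10. At the overlapping genes col-159 and col-160 the peak of replicate 2 had a signal of 8.442 (rank 1851), and replicate 1 had no peak in their windows. The genes counted thus differed between the replicates, and they included rol-6, at rank 239 of replicate 1.

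The collagens of the annular furrows, encoded by dpy-2, dpy-3, dpy-7, dpy-8, dpy-9 and dpy-10, form the circumferential bands that are lost when any of them is missing. None was linked to an optimal peak, and each had a pooled peak of lower rank. The highest pooled signals were 12.79 at dpy-3 (rank 4247), 8.495 at dpy-9 (rank 7014) and 7.873 at dpy-2 (rank 7786). All 3 values were below the lowest signal of the optimal list, 21.44.

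The pooled peak of dpy-3 lay 1528 bp downstream of the start, at a CRE palindrome, and neither replicate list had a peak in the window. At dpy-9 the list of replicate 2 held a peak of 9.235 (rank 1604) 522 bp into the gene, and that of replicate 1 a peak of 6.051 (rank 6444) 1622 bp upstream. These were different positions, so the replicates did not mark the same DNA. At dpy-10 the values were 5.81 in the pooled list (rank 12017, 3 bp upstream of the start), 5.203 in replicate 1 (rank 8037) and 6.754 in replicate 2 (rank 2601), the last beyond the end of the gene. The peak of replicate 1 was also the one in the window of dpy-2, the neighbouring gene.

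The furrow collagens dpy-7 and dpy-8 had pooled signals of 4.712 (rank 15843) and 5.91 (rank 11724). In replicate 1, dpy-7 had a highest signal of 4.568 (rank 9593) and dpy-8 no peak, and in replicate 2, dpy-8 had 5.197 (rank 3858) and dpy-7 no peak. Each was thus marked by 1 replicate only.

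Of the collagens of the annuli and of body length, dpy-5 had a pooled signal of 6.707 (rank 9784) and 3.47 in replicate 1 (rank 13653), with no peak in replicate 2. No list had a peak at dpy-13. The gene lon-3, whose loss makes animals long, had a peak in replicate 1 alone, with a signal of 2.949 (rank 16251).

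The products of sqt-3 and dpy-17 act together in forming the cuticle, and SQT-3 is already needed in the embryo. For sqt-3 the pooled signal was 4.381 (rank 17355) and that of replicate 1 was 2.689 (rank 17872), with no peak in replicate 2. For dpy-17 the only peak was in replicate 2, with 5.005 (rank 4072) 136 bp into the gene. Neither gene had a full site in its window.

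Beside rol-6 the listed roller collagens are sqt-1 and sqt-2, in which mutations twist the body. No list had a peak at sqt-1. At sqt-2 the signal was 7.284 in the pooled list (rank 8708, 167 bp upstream), 3.99 in replicate 1 (rank 11516) and 3.118 in replicate 2 (rank 7614). Among these 3 genes rol-6 therefore stood alone in the optimal list, and in replicate 1 its signal of 69.01 compared with 3.99 at sqt-2. Outside the 16 listed genes, rol-8 also had an optimal peak (57.44, rank 679). Body-form genes outside the 16, rol-8 among them, were not sorted into collagen genes and others.

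BLI-1 and BLI-2 build the struts between the layers of the adult cuticle, whose loss raises blisters. The pooled signals were 7.097 at bli-1 (rank 9006) and 4.339 at bli-2 (rank 17538). In replicate 1 the genes had 4.243 and 2.237, and replicate 2 had no peak at either gene. Both lay well below the optimal list.

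**Figure D5:**
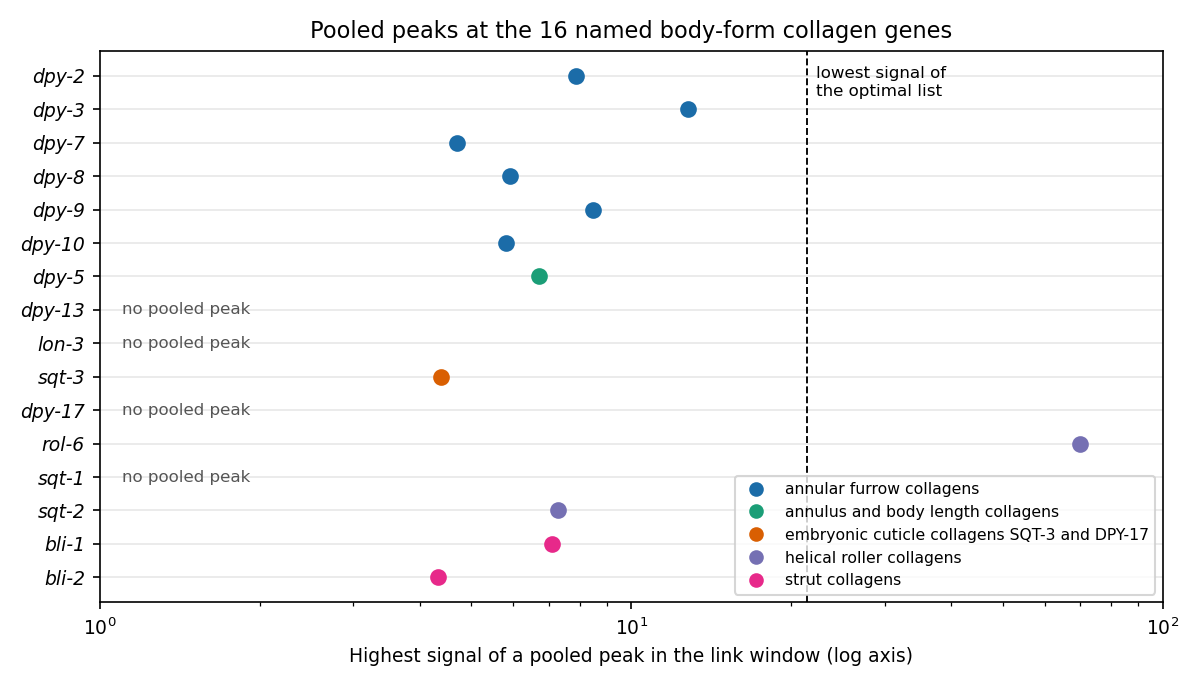
Highest signal of a pooled peak in the link window of each of the 16 body-form genes, on a log axis, coloured by role, with a dashed line at the lowest signal of the optimal list (21.44). One gene, rol-6 at 69.85, lies to the right of the line, 11 lie to the left, and 4 (dpy-13, dpy-17, lon-3 and sqt-1) have no pooled peak.

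In all, 12 of the 16 body-form genes had a pooled peak (75%, beside 74.5% of all genes). A peak in replicate 1 lay at 11, in replicate 2 at 5 and in both at 3 (dpy-9, dpy-10 and sqt-2). The replicate shares over all genes were not worked out. At these 3 genes the highest peaks of the replicates lay at different places. For sqt-2 they were 724 bp downstream and 1 bp upstream of the start. Full bZIP sites lay in the windows of 6 of the 16 genes, beside 57.53% of all genes. There were 2 each at rol-6, dpy-3, dpy-8 and dpy-9 and 1 each at dpy-5 and bli-2. At rol-6 a site coincided with an optimal summit, and at dpy-3 and dpy-8 a site coincided with a pooled summit, the dpy-8 site being a hybrid 513 bp into the gene in a coding exon.

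Over all 172 genes the pooled list was linked to 119 (69.19%, 61.71 to 75.99%), beside 74.5% of all genes. A pooled but no optimal peak was linked to 102 (59.3%, beside 60.6% of all genes), no pooled peak to 53 (30.8%, beside 25.5%), and no peak of any list to 29 (16.9%, beside 14.9%). The pooled list held exactly 30000 peaks in all, down to a signal of 2.436, and whether it was cut at that number is not stated, so a weaker peak may lie at genes with no pooled peak. The median of the highest pooled signal was 6.92 for collagen genes with a pooled peak and 7.39 for all such genes.

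Across the chromosomes, linked collagen genes lay on each of the 6 nuclear chromosomes. On chromosome IV, with 43 collagen genes, 4 were linked, beside 12.3% of its protein-coding genes. On II 4 of 31 (12%), on X 4 of 30 (14.3%), on V 2 of 33 (12.1%), on III 2 of 13 (16.7%) and on I 1 of 22 (18.3%) were linked, where the percentages are those of all genes of that chromosome. The counts per chromosome are too small to rank.

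Other genes of the cuticle and extracellular matrix were chosen by their known roles. They cover collagen modification, processing and cross-linking, epidermal transcription factors, moulting, the precuticle, other body-form genes and other collagens. Of these 81 genes 78 were matched in the annotation, and 19 of them were linked to an optimal peak (24.36%, 15.35 to 35.4%), beside 13.9% of all protein-coding genes. In 9 of the 78 a summit lay in the promoter, beside 4.35% of all genes. The lengths of these genes were not compared with those of collagen genes or of all protein-coding genes, and the part of gene length in the shares was not tested.

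Among factors of the epidermis and moulting, 3 of 10 were linked. These were nhr-25, a nuclear receptor (68.85, rank 471, in an intron), elt-3, a GATA factor that activates epidermal genes (31.87, rank 1648, 219 bp from the start), and lin-29, a zinc finger factor of the last moult (24.4, rank 2250). The peak of nhr-25 held a hybrid site and the others a CRE palindrome. The signals given here and in the next paragraphs are those of the optimal list.

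Of the procollagen proteases and their partners, 4 of 9 were linked. The gene dpy-31 encodes the astacin metalloprotease that cleaves SQT-3, and its peak had a signal of 45.73 (rank 997) in an intron. The others were cpz-1, a cathepsin (53.14, rank 789), bli-5, a gene for a Kunitz-type inhibitor (42.03, rank 1115), and nas-7, another astacin (35.57, rank 1438). Peaks thus lay at dpy-31 but at neither of the genes for its substrate SQT-3 and the partner DPY-17 in the optimal list. In the class of collagen modification and folding, 1 of 9 was linked, the prolyl isomerase gene fkb-5 (23.19, rank 2385).

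Of the cross-linking oxidases and peroxidases 2 of 6 were linked, the peroxidase genes skpo-1 (52.19, rank 814, past the end of the gene) and mlt-7 (51.73, rank 828, in an intron). Of the moulting and endocytosis genes 2 of 8 were linked. The highest signal of the whole pathway list was at one of them, che-14 (150.2, rank 96), a gene for a protein of apical secretion, with a summit 302 bp upstream and a C/EBP palindrome. The other was mlt-8 (23.46, rank 2351).

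In the precuticle, the matrix laid down before the collagens, 3 of 17 genes were linked. They were egg-6, for a leucine-rich repeat protein (88.24, rank 274, 164 bp upstream), dex-1 (33.96, rank 1521, 126 bp upstream) and fbn-1, for a fibrillin-like protein (22.71, rank 2456). Other body-form genes gave 2 of 14, rol-8 (57.44, rank 679) and lon-1 (22.8, rank 2435). Of the basement membrane and other collagen genes, 2 of 5 were linked, mig-6, for the papilin of the basement membrane (46.44, rank 972), and mec-5, for a collagen of touch neurons (26.06, rank 2095). The peak of highest signal at every linked pathway gene held a full site, beside 78.7% of all optimal peaks.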

How the data were processed

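The authors deposited narrowPeak lists on 2 builds, of which ce11 was used. A replicate list was made from the alignments of that replicate with a control, the pooled list from both sets of alignments, and the optimal list by the irreproducible discovery rate, all per the file headers. The deposited signal (the enrichment value of the authors' caller) was used to rank peaks within a list. No header or label names the aligner, caller or threshold, and the read depth is unknown. Lists on ce10, control data and signal tracks were not used here.

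The 4 ce11 lists were read with Python 3.11.15 and numpy 2.4.6, and summits were linked to Ensembl release 115 genes and to the RefSeq genome of the same assembly. A start codon ATG was found at 99.83% of the genes, and 0 peaks ran past a chromosome end. Peaks were called overlapping from 1 bp. Exact Clopper-Pearson 95% intervals (scipy 1.17.1) cover counting error only, and no chance test was run. The linking, site search and overlap steps were tested on simulated data. Figures were drawn with matplotlib 3.10.9.

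Named were all 16 body-form genes, every col gene with an optimal summit in its link window or promoter, and every linked pathway gene. Other genes were chosen after their values were seen. The members, the lists and the site definition were chosen with earlier results of these data known. Alternatives changed the link window, the promoter, the peaks, the site and the replicates.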

Additional observations from a re-analysis of the deposited data

How the results depend on the processing

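Of 37 alternatives, 32 kept the count or value within the limits set for it (1.5 times for counts). A window reaching 5000 bp upstream linked 27 collagen genes through 26 summits in place of 17 through 15, beside 19.7% of all genes. Promoter summits numbered 5 with a promoter of 500 bp upstream and 4 with the higher-signal 50% of peaks, in place of 8 (shares of all genes are given with that result). Pooled peaks overlapping both replicate lists were linked to 25 collagen genes (14.5%, beside 21.9% of all genes) in place of 119. Each of these settings used a stricter or wider rule than the main one, and what moved the counts was not tested.

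Leaving out a replicate meant taking the top 2610 peaks of the other replicate list in place of the optimal list. Without replicate 1 or replicate 2, members linked ranged from 18 to 20 and summits from 16 to 18. Promoter genes ranged from 6 to 8 and the share of summits with a full site from 55.56 to 75%. For these promoter genes and sites, shares over all genes or peaks of those lists were not worked out. The alternatives "peaks in both replicate lists" (14 genes, 8.14% beside 11.3% of all genes) and "without col-99" (16 genes) were chosen after seeing the data. No paired analysis was possible because there is 1 group. Unknown depth limits what the absence of a peak shows, and low-ranked pooled peaks passed no reproducibility threshold.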

Other observations

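Outside the link windows, 6 optimal summits had a collagen gene as the nearest start. The summit nearest col-61 had a signal of 252.8 (rank 23 of the optimal list, 26 in replicate 1 and 27 in replicate 2), higher than any linked peak, and lay 3183 bp past the end of the gene with a C/EBP palindrome. The summit nearest col-187 had 123.1 (rank 146, with 122 in replicate 1 and 4903 in replicate 2) and lay 4711 bp upstream with a CRE palindrome. Others lay near col-115 (40.75, 3907 bp past the end), col-99 (28.82, 2059 bp upstream), col-185 (26.13, 2013 bp upstream) and col-186 (26.06, 3363 bp upstream, in an intron of mec-5). Those near col-185 and col-186 had no overlapping peak in replicate 2. All 6 held a full site, beside 78.7% of all optimal peaks. These genes were chosen after their values were seen.

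Just below the optimal list, pooled ranks up to 5220 were linked to 21 collagen genes (12.2%, beside 14.6% of all genes). Of these, 2 (col-99 and col-72) also had an optimal peak, and the other 19 had none (11%, beside 11.6%). The highest of these peaks were at col-99 (20.44, rank 2728), col-181 (19.76, rank 2830), col-62 (18.95, rank 2949) and col-46 (18.76, rank 2974), the last 2 with a CRE palindrome. No peak of replicate 2 overlapped those at col-181, col-62 and col-46. The col-99 peak overlapped peaks at rank 10824 of replicate 1 and rank 2718 of replicate 2. Inside the list the lowest linked peaks were at col-72 (23.79) and col-186 (23.94).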
